A study of Mus musculus with 2 samples.

Results

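The Clec genes encode C-type lectins and proteins that share their fold. The members described here are the rows of the count matrices whose gene symbol is Clec followed by a digit, which gave 31 genes of 32285. CD45+ live cells were sorted from subcutaneous MC38 tumors, a mouse colon adenocarcinoma line, grown in wild-type (WT) mice, and their RNA was measured by droplet single-cell RNA-seq. The Control library came from tumors without irradiation and the IR library from tumors collected 4 days after a single dose of 20 Gy given to the tumor. Both libraries are from WT mice and each holds cells of several tumors pooled together, so there was 1 library per group, no replicate and no test. Intervals below are exact 95% intervals that cover counting error only, and differences are between these 2 libraries.

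C-type lectin receptors are surface proteins of myeloid cells that bind carbohydrates, glycolipids or material from dead cells. Several pair with the adaptors FcRγ (Fcer1g) or DAP12 (Tyrobp) and signal through an ITAM motif to the kinase Syk and the adaptor Card9, others carry an inhibitory ITIM motif that recruits phosphatases such as Ptpn6, and others take up bound glycans without a known signalling motif. The Clec2 group differs from these: its products are ligands that NK cell receptors of the Klrb1 family read.

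The members lie close together in the genome. In the mm10 assembly (GRCm38), 23 of the 31 are on chromosome 6. A first cluster of 9 genes spans 368.0 kb (chr6:122921848-123289870) and holds Clec4a1, Clec4a3, Clec4a4, Clec4b1, Clec4a2, Clec4b2, Clec4n, Clec4d and Clec4e in this order. A second cluster of 11 genes spans 789.6 kb (chr6:128662385-129452000) and runs from Clec2h through the other Clec2 genes to Clec12a, Clec12b, Clec1b, Clec9a and Clec1a. Clec5a stands by itself on chromosome 6 and Clec10a on chromosome 11. All members but Clec2f, a transcribed pseudogene, are annotated as protein coding.

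RefSeq promoter windows, each from 250 bases before to 50 after a start site, matched 24 of the 31 members. The windows of 4 members are printed because their transcripts differed between the libraries or were highest in neutrophils: Clec4e, Clec4d and Clec5a were higher after IR in macrophages, and Clec4b1 was lower. Capitals mark matches, on either strand, to the PU.1 core GAGGAA, the C/EBP motif TTGCNNAA, the NF-kB motif GGNNTTTCC and the IRF motif GAAANNGAA. Sequences run 5′ to 3′ on the strand of the gene (GRCm38.p6).
Clec4e, chr6:123289822-123290121, minus strand: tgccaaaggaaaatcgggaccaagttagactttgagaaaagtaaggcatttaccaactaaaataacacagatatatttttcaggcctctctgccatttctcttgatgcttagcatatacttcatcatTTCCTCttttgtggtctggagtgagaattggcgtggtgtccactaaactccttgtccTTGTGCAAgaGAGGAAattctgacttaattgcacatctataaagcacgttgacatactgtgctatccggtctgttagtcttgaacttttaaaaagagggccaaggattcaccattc
Clec4d, chr6:123261857-123262156, plus strand: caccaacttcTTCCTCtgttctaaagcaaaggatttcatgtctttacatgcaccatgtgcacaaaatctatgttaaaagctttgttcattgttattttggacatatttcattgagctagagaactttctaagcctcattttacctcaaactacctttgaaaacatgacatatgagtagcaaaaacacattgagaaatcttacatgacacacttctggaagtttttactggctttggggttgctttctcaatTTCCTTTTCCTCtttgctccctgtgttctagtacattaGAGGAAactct
Clec5a, chr6:40585756-40586055, minus strand: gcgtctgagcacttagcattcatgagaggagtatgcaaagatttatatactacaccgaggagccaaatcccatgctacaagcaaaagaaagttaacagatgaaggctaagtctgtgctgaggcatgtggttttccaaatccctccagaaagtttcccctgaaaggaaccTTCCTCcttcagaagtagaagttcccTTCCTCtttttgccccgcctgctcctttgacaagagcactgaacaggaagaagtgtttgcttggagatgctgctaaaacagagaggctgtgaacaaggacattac
Clec4b1, chr6:123049712-123050011, plus strand: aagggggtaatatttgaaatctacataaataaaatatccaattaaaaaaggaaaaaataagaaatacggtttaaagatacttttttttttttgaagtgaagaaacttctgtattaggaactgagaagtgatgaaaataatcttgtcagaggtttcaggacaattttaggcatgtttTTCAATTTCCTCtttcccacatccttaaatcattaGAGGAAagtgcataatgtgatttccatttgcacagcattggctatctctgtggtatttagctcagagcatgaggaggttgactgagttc

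With the start site counted as position 0, the Clec4e window held a C/EBP match from -66 to -59 with a PU.1 core beside it from -56 to -51 and another from -123 to -118. The Clec4d window held 3 PU.1 cores, of which the one from 7 to 12 overlaps an IRF match from 1 to 9. The Clec5a window held 2 PU.1 cores, from -81 to -76 and from -55 to -50. The Clec4b1 window, whose gene was lower after IR in macrophages, held 2 PU.1 cores as well, and the one from -68 to -63 overlaps an IRF match from -74 to -66. These letters are common. The PU.1 core was in 28.3% of 32851 promoter windows of the same length and in 14 of the 26 windows of members, the C/EBP motif in 10.8% and in 6, the NF-kB motif in 5.82% and in 2, and the IRF motif in 8.56% and in 7. A match is a description of the letters and not a measured binding site.

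The Control library held 48593879 UMIs and the IR library 42406461. After filtering, 4740 Control cells with a median of 6463.5 UMIs and 3363 IR cells with a median of 7514 UMIs remained, and the libraries shared 6 cell barcodes. Cells were assigned to gates by marker lists that hold no Clec gene. The label names the cells CD45+CD11b+Ly6Chi, while the T cell gate held 457 Control and 268 IR cells and the NK cell gate 258 and 347, so the libraries were treated as all CD45+ cells. The classical monocyte gate held 374 Control and 781 IR cells, the macrophage gate 2005 and 371, and the neutrophil gate 36 and 177. A gate of cells that scored on both the monocyte and the macrophage list, called intermediate, held 103 and 195 cells. The nonclassical monocyte gate held 47 and 59 cells, the cDC1 gate 43 and 15, the cDC2 gate 50 and 52, and the Ccr7+ mature DC gate 116 and 139. The pDC gate held 8 and 7 cells and is not compared.

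UMIs were summed over the cells of a gate and scaled to all UMIs of that gate (CPM). The kit tags the 3′ end of each transcript, so a UMI stands for 1 molecule whatever the length of the gene. Of the 31 members, 18 reached 20 UMIs over both libraries in at least 1 of the 8 myeloid gates. The other 13 did not, of which 6 had no UMI there and the other 7 had at most 17. Neutrophils had the highest Clec level by far: all members together made up 5633 CPM of the Control gate and 7675 CPM of the IR gate. In macrophages the sum was 1623 CPM in Control and 2802 CPM in IR, in classical monocytes 1645 and 2168 CPM, in intermediate cells 1776 and 2427 CPM, and in nonclassical monocytes 1530 and 1864 CPM. It was lower in DCs, at 605 and 725.6 CPM in cDC1, 728 and 958.8 CPM in cDC2, and 161.8 and 347 CPM in mature DCs. The sum was higher in IR in all 8 gates.

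**Figure D1:**
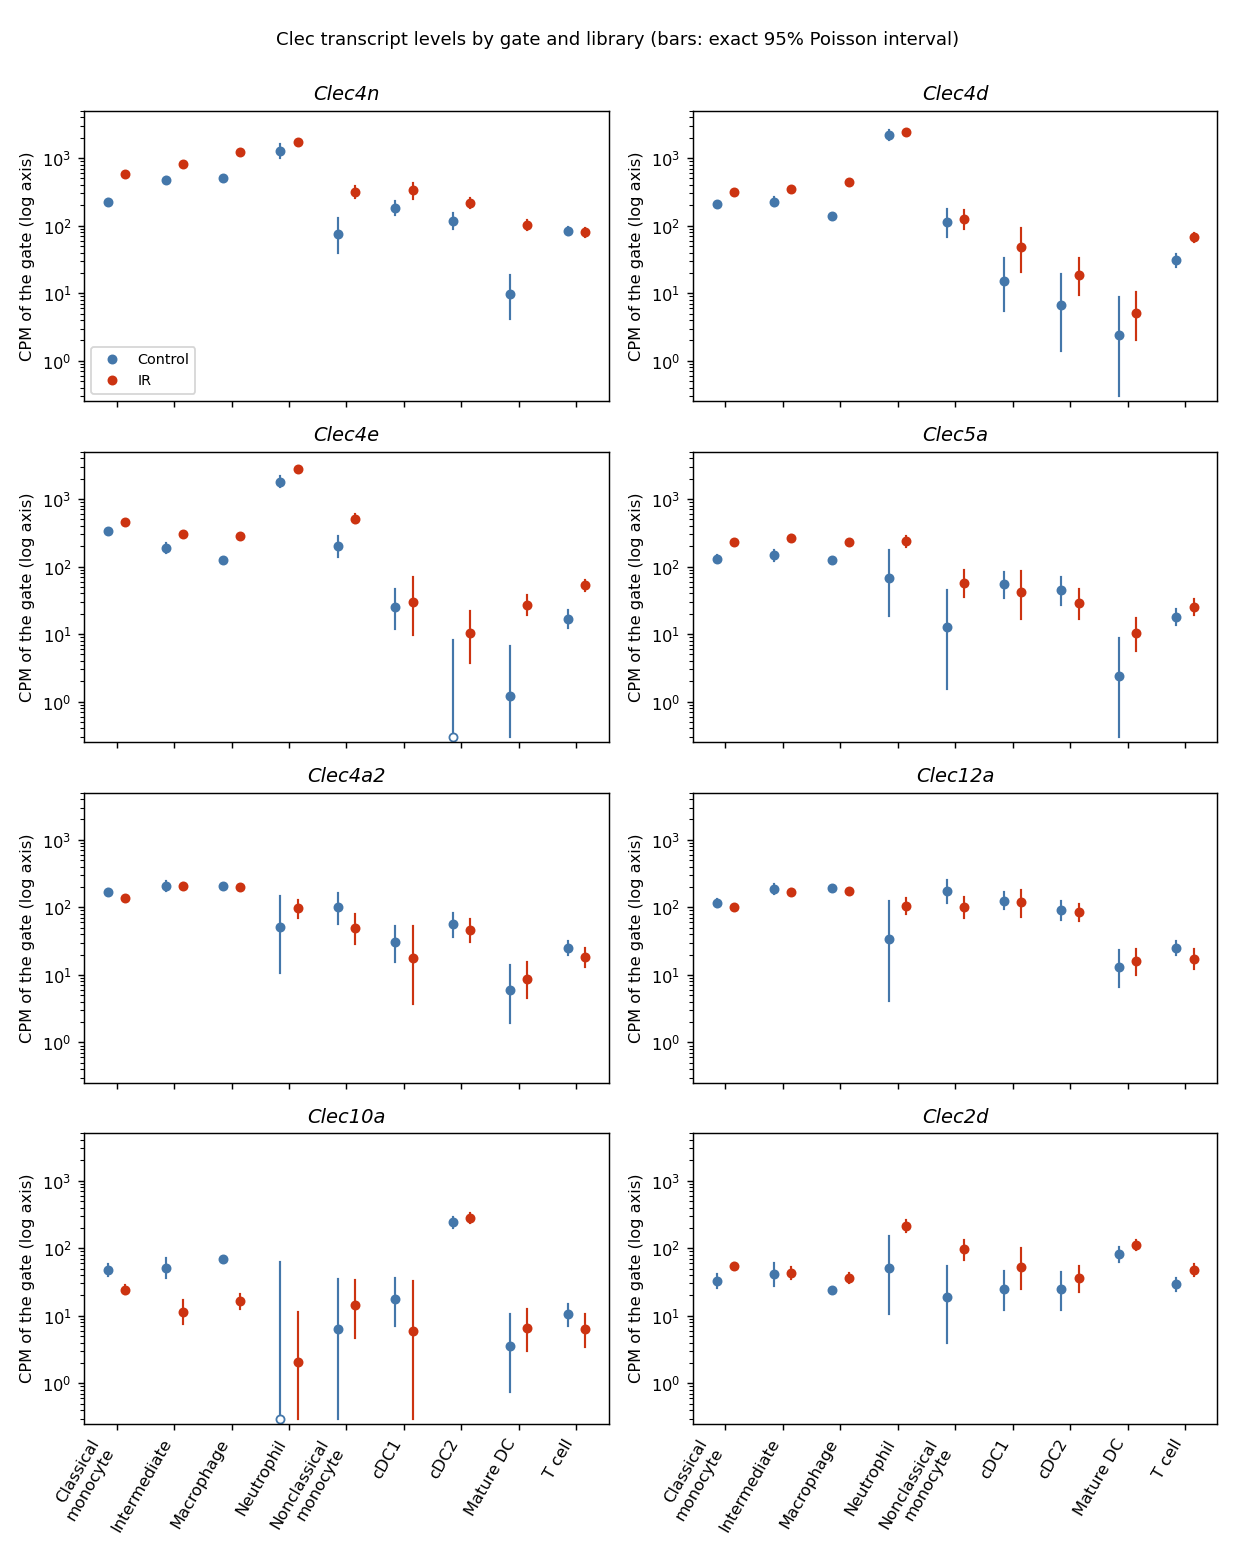
Level of 8 members (CPM of the gate, log axis) in 8 myeloid gates and the T cell gate, in the Control (blue) and IR (red) libraries, with exact 95% Poisson intervals; open points had no UMI. Among the gates shown, Clec4n, Clec4d and Clec4e are highest in neutrophils, where Clec4d reads 2236 and 2465 CPM. Clec10a is highest of these gates in cDC2, at 241 and 280.3 CPM.

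Genes were counted as different when the CPM of the libraries differed by 2-fold or more and the gate held at least 20 UMIs of the gene. In the macrophage gate 4 of 18 measured members were past 2-fold higher in IR, beside 3.04% of all 11444 measured genes, and 2 were lower, beside 7.01%. The 4 were Clec4n, Clec4d, Clec4e and Clec1b, and the 2 were Clec10a and Clec4b1. In the classical monocyte gate 1 of 14 was higher, Clec4n, beside 4.91% of genes, and 1 was lower, Clec4b1, beside 1.41%. In the intermediate gate none of 11 was higher, beside 6.19%, and Clec10a was lower, beside 2.42%. In the nonclassical monocyte gate 4 of 9 were higher, beside 6.13%, and 1 was lower, beside 4.38%. In the neutrophil gate 3 of 7 were higher, beside 14.4%, and none was lower, beside 12.8%.

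The DC gates held fewer UMIs of the members. In cDC1 none of 4 measured members was past 2-fold in either direction, beside 4.58% of genes higher and 7.47% lower. In cDC2 3 of 11 were higher, beside 3.56%, and none was lower, beside 3.85%. In mature DCs 3 of 5 were higher, beside 5.38%, and none was lower, beside 2.46%. The median log2 ratio of IR to Control over the measured members was -0.02 in macrophages and -0.18 in classical monocytes, against -0.10 and -0.03 over all measured genes. It was 0.91 in neutrophils against -0.13, 0.55 in cDC2 against -0.01, and 1.56 in mature DCs against 0.08. These medians rest on 7, 11 and 5 members. The UMI minimum is summed over both libraries, and the IR library held most UMIs of the neutrophil gate, 488487 against 58581. The IR library also held more UMIs in each other myeloid gate but macrophages and cDC1, as in nonclassical monocytes, 344995 against 158799. A gene lower in IR reaches the minimum less readily in these gates, whether a member or not. Clec2d reached it in nonclassical monocytes with 3 Control and 33 IR UMIs. Clec4a3 in neutrophils (4 Control and 6 IR UMIs, log2 ratio -2.475) and Clec9a in mature DCs (7 and 2, -2.518) fell below it. Others below it, such as Clec5a in mature DCs (2 and 14, 2.096), were higher in IR. The part of the minimum in these medians and in the counts above was not tested.

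**Figure D2:**
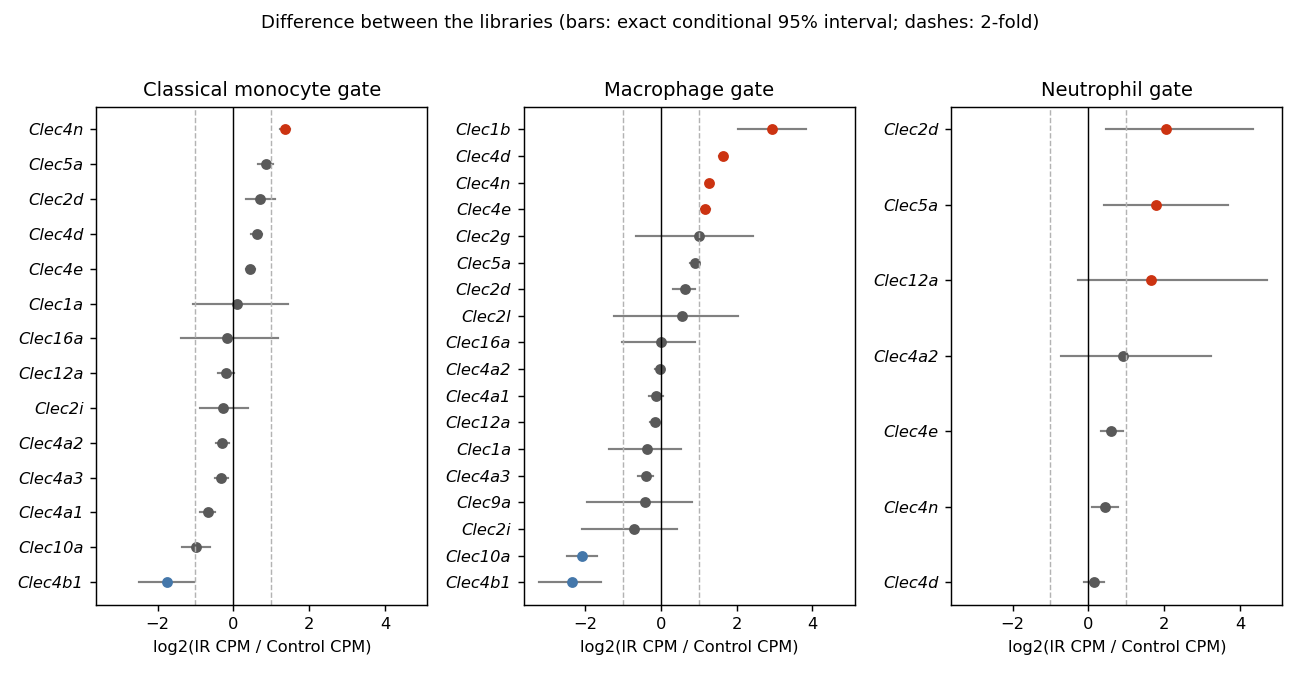
log2 ratio of the CPM in IR to that in Control for each measured member in the classical monocyte, macrophage and neutrophil gates, with exact conditional 95% intervals; dashed lines mark 2-fold, red points are past it upward and blue points downward. In macrophages Clec1b (2.93), Clec4d (1.63), Clec4n (1.28) and Clec4e (1.18) lie above, and Clec10a (-2.07) and Clec4b1 (-2.34) below.

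The receptors that pair with ITAM adaptors include Clec4n, which encodes Dectin-2, a receptor for fungal mannans that pairs with FcRγ. In macrophages it was at 510.2 CPM in Control (499.7 to 520.7) and 1235 CPM in IR (1199 to 1272), 2.42-fold higher. In classical monocytes it was at 224.5 CPM (204.7 to 245.8) and 574.8 CPM (557.2 to 592.7), 2.56-fold higher. The intermediate gate lay between these gates in Control, at 472.8 CPM, and read 811.5 CPM in IR, 1.72-fold higher. Intervals of the libraries did not overlap in any of these 3 gates.

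The difference in Clec4n depended on how cells were grouped. With clusters made without the Clec genes in place of gates, the log2 ratio was 0.68 in macrophages and 0.78 in classical monocytes, both under 2-fold. At a common depth of 2000 UMIs a cell, the share of macrophages with a Clec4n UMI was 49.0% in Control (46.6 to 51.3) and 71.8% in IR (66.4 to 76.8). Thinning left out 223 Control and 66 IR macrophages below that depth, and 45 and 46 classical monocytes. Without thinning, 1489 of 2005 Control and 305 of 371 IR macrophages had a Clec4n UMI. In classical monocytes the share was 29.5% (24.6 to 34.7) and 44.9% (41.3 to 48.6). In the T cell gate, which should lack the gene, it was 5.91% and 7.17%, with median depths of 5056 and 6264 UMIs against 8959.5 and 9877 in macrophages. The T cell level of Clec4n did not differ beyond its intervals, at 83.5 CPM in Control and 79.4 CPM in IR.

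Clec4d encodes MCL and Clec4e encodes Mincle, neighbouring receptors for mycobacterial glycolipids, of which Mincle also binds the nuclear protein Sap130 of dead cells. In macrophages Clec4d was at 141 CPM in Control (135.8 to 146.9) and 436 CPM in IR (414.9 to 458.4), 3.09-fold higher. Clec4e was at 126 CPM (121 to 131.4) and 285 CPM (267.8 to 303.1), 2.26-fold higher. With clusters in place of gates the log2 ratios were 1.14 and 1.09, so both remained past 2-fold. The share of macrophages with a Clec4d UMI at the common depth was 21.8% in Control and 53.1% in IR, and that with a Clec4e UMI was 17.1% and 34.8%. Without thinning, 894 Control and 268 IR macrophages had a Clec4d UMI and 752 and 197 a Clec4e UMI. In T cells these shares were 1.80% and 5.06% for Clec4d and 2.06% and 4.22% for Clec4e. Unlike that of Clec4n, the T cell levels of both were past 2-fold higher in IR without overlap. Clec4d was at 31.1 and 67.1 CPM there, 2.16-fold higher, and Clec4e at 17.0 and 53.0 CPM, 3.12-fold higher. In NK cells Clec4e was at 4.61 and 14.0 CPM, Clec4d at 8.07 and 8.70 CPM and Clec4n at 22.5 and 8.08 CPM.

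In classical monocytes both genes were higher in IR by less than 2-fold. Clec4d went from 207 to 317 CPM and Clec4e from 333 to 452 CPM, with intervals that did not overlap. The order of the genes differed between the gates: in Control, Clec4e was above Clec4d in classical monocytes, and Clec4d was above Clec4e in macrophages, each without overlap of intervals. In the intermediate gate Clec4d was at 227.5 and 349 CPM and Clec4e at 191 and 301 CPM. Free RNA in the droplets held these transcripts too. In barcodes of 1 to 100 UMIs, which hold no cell, Clec4n was at 322 CPM in Control and 419 CPM in IR, Clec4d at 116 and 217 CPM, and Clec4e at 101 and 246 CPM. Subtracting free RNA, estimated at 13.2% of the macrophage gate in Control and 4.57% in IR, changed the side of 2-fold for none of these values in macrophages.

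Markers of other cell types moved with these 3 genes. The 9 neutrophil markers, among them S100a8 and S100a9, summed to 142 CPM in the Control macrophage gate and 280.3 CPM in IR, higher for 7 of 9. In classical monocytes they summed to 169 and 506.5 CPM and in intermediate cells to 200.9 and 419 CPM, higher for 8 of 9 in each, and no marker was at 0 in both libraries of these 3 gates. In the neutrophil gate itself they summed to 79040 and 72820 CPM. The 8 classical monocyte markers summed to 953 and 1330 CPM in macrophages, higher for 6 of 8. Neutrophils held more Clec4n, Clec4d and Clec4e than any other gate, and the part of these markers in the differences was not tested.

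**Figure D3:**
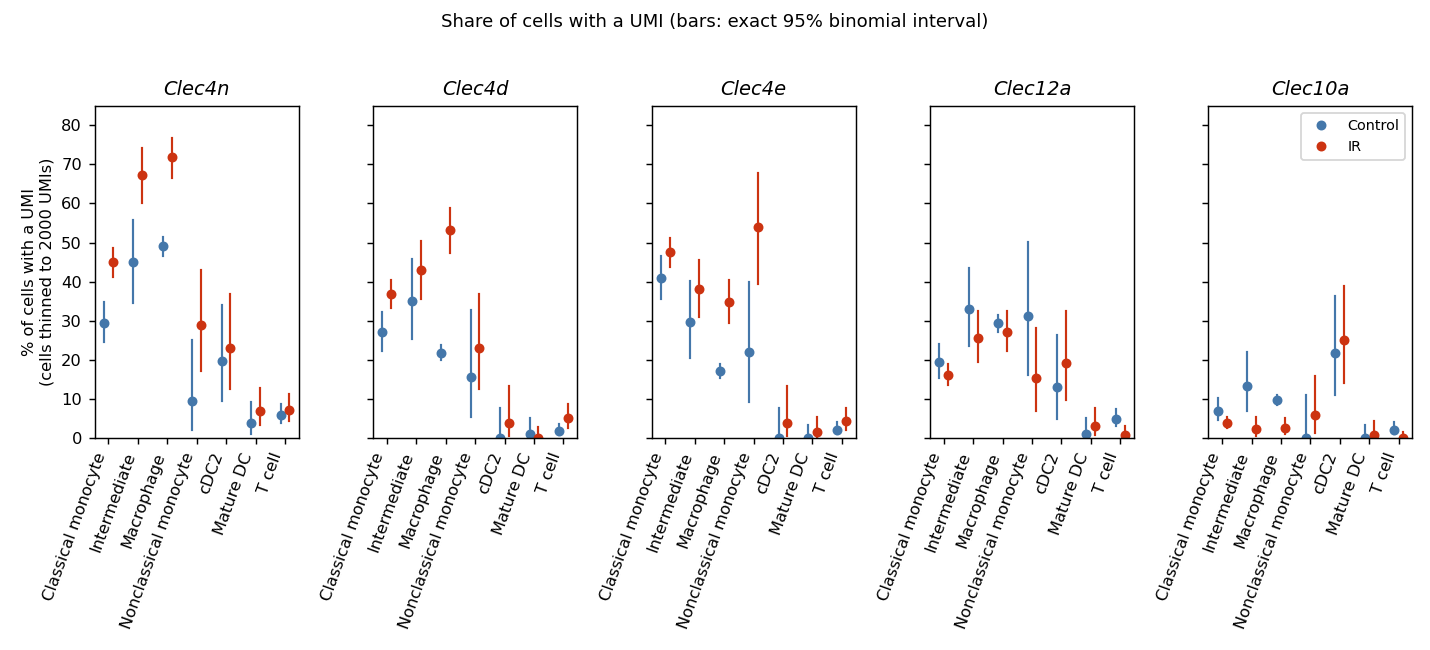
Share of cells with at least 1 UMI of 5 members after thinning each cell to 2000 UMIs, by gate and library (Control blue, IR red), with exact 95% binomial intervals. Macrophages with a Clec4d UMI go from 21.8% to 53.1%, while shares of Clec4n in mature DCs (3.74% and 6.98%) are as low as in T cells (5.91% and 7.17%).

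In neutrophils the same 3 genes were highest of all members, and none of them was past 2-fold. Clec4d was at 2236 CPM in Control (1870 to 2654) and 2465 CPM in IR (2327 to 2608), with overlapping intervals. Clec4e was at 1809 CPM (1481 to 2188) and 2757 CPM (2612 to 2909), 1.52-fold higher, and Clec4n at 1297 CPM (1022 to 1624) and 1748 CPM (1633 to 1870), 1.35-fold higher. The Control gate rests on 36 cells and 58581 UMIs in all. A TMM scaling factor shifted all log2 ratios of this gate by 0.59, and with it 6 members in place of 3 were past 2-fold, among them Clec4e at 1.198 and Clec4n at 1.02. The shift applies to every gene of the gate, and the share of all genes past 2-fold under it was not computed. At a depth of 1000 UMIs a cell, 85.7% of 28 Control neutrophils (67.3 to 96.0) and 85.4% of 171 IR neutrophils (79.2 to 90.3) had a Clec4d UMI. For Clec4e the shares were 60.7% (40.6 to 78.5) and 81.9% (75.3 to 87.3), and for Clec4n 42.9% (24.5 to 62.8) and 64.3% (56.7 to 71.5).

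Clec5a encodes MDL-1, a receptor that pairs with DAP12. It was higher in IR in 3 large gates by close to the same factor: 130 and 234 CPM in classical monocytes (1.80-fold), 125 and 232 CPM in macrophages (1.86-fold), and 146 and 268.5 CPM in intermediate cells (1.84-fold). None of these is past 2-fold, and the intervals of the libraries did not overlap. In neutrophils it was past 2-fold, at 68.3 CPM in Control, from 4 UMIs, and 237.5 CPM in IR, from 116 UMIs. The ratio there has a wide interval, from 0.40 to 3.70 on the log2 scale, and with clusters in place of gates it was 0.77, under 2-fold. In nonclassical monocytes Clec5a was past 2-fold as well, at 12.6 CPM from 2 UMIs and 58.0 CPM from 20 UMIs, a log2 ratio of 2.20 (0.16 to 5.34) with overlapping intervals of the levels. In cDC1 and cDC2 Clec5a read 55.5 and 41.6 CPM, and 44.7 and 29.1 CPM, with overlapping intervals.

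Nonclassical monocytes were few. Clec4n read 75.6 CPM in Control against 316 CPM in IR, and Clec4e 201.5 against 510.2 CPM, both past 2-fold without overlap. Clec4d was not, at 113 and 125 CPM. With clusters in place of gates the log2 ratio was 0.82 for Clec4n and 0.47 for Clec4e, under 2-fold, and with a wider gate margin of 2.0 that of Clec4e was 0.94. Neutrophil markers in this gate summed to 145 CPM in Control and 377 CPM in IR, higher in IR for 5 of 9, with 2 at 0 in both libraries. Classical monocyte markers summed to 5598 and 6623 CPM, higher for 5 of 8, and macrophage markers to 2802 and 1101 CPM, higher for 1 of 8. The part of these lists in the difference was not tested.

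Clec1b encodes CLEC-2, known as the platelet receptor for podoplanin (Pdpn). In macrophages it was at 1.07 CPM in Control, from 19 UMIs in 17 of 2005 cells, and 8.10 CPM in IR, from 29 UMIs in 20 of 371 cells. Of the 29 UMIs, 22 were in the subset marked by Mmp12 and Mmp13. Its log2 ratio in macrophages was 2.93 (2.04 to 3.84), and 1.81 with clusters in place of gates. It was 0.71, under 2-fold, when 10 CPM was added to both levels, and the gene is not measured at a minimum of 50 UMIs. The annotation of Clec1b ends inside that of Clec9a on the same strand, so 3′ reads of this stretch cannot be assigned with certainty. Clec9a itself encodes DNGR-1, a receptor for actin filaments of dead cells found on cDC1. It was highest in the cDC1 gate, at 70.6 CPM in Control and 59.5 CPM in IR, from 28 and 10 UMIs, with overlapping intervals. In macrophages it was at 2.25 and 1.68 CPM.

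Clec4b1 encodes DCAR, an FcRγ-coupled receptor in the same cluster as Clec4n. Unlike Clec4n, Clec4d and Clec4e it was lower in IR in macrophages, at 19.8 CPM in Control (17.7 to 21.9) and 3.91 CPM in IR (2.14 to 6.56), 5.05-fold lower. In classical monocytes it was at 16.8 and 4.95 CPM, 3.39-fold lower. The IR values rest on 14 and 35 UMIs. Free RNA also held less Clec4b1 in IR, at 26.9 CPM in Control and 7.51 CPM in IR, above the level of both gates in each library. T cells had 13 Control UMIs and 0 IR UMIs of the gene. The part of free RNA in these differences, beyond the subtraction named above, was not tested. With clusters in place of gates the log2 ratios were -0.59 and -0.28, under 2-fold, and with 10 CPM added to both levels that in classical monocytes was -0.84. The nearest measured gene, Clec4a2, was at 205 and 201.5 CPM in macrophages. In the cDC2 gate it was at 22.3 CPM in Control and 56.4 CPM in IR, from 10 and 33 UMIs, 2.53-fold higher with overlapping intervals.

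**Figure D4:**
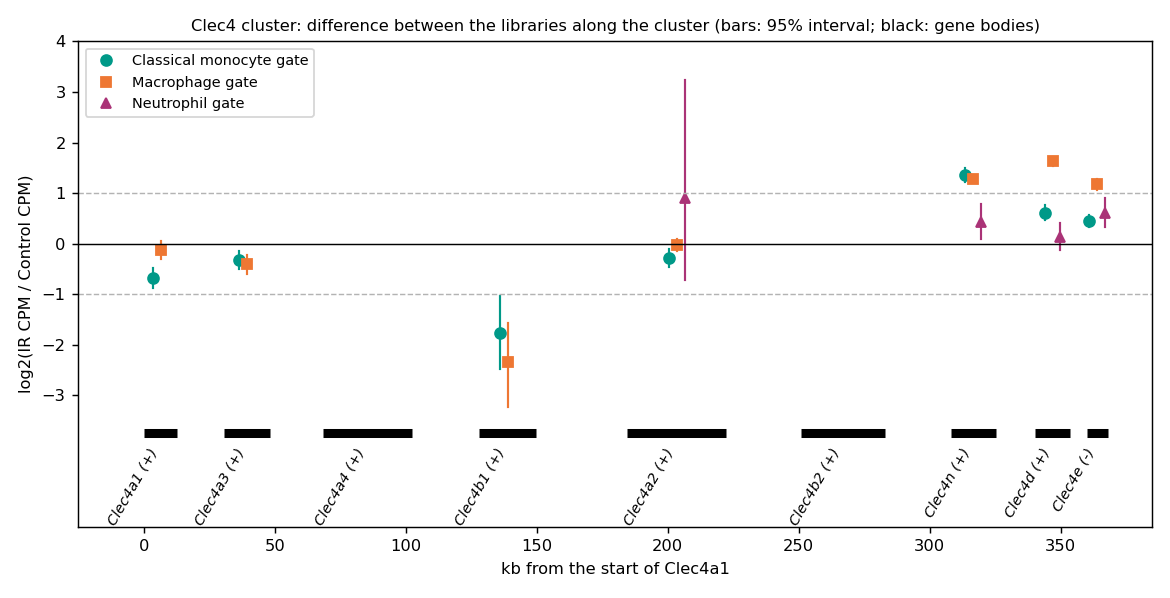
log2 ratio of IR to Control CPM for the measured members of the Clec4 cluster against distance in kb from the start of Clec4a1, in the classical monocyte, macrophage and neutrophil gates, with 95% intervals; black bars are gene bodies and signs in parentheses the strand. Clec4n, Clec4d and Clec4e, from 308.0 kb on, lie above 0 in all 3 gates, while Clec4b1, at 128.1 kb, lies below -1 in the 2 gates where it was measured.

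The Clec4a and Clec12 group includes Clec4a2 (DCIR) and Clec12a (MICL), inhibitory receptors with an ITIM motif. Whether Clec4a1 and Clec4a3, also in the group, carry this motif was not settled, so the group is not read as inhibitory receptors alone. None of its 4 measured members was past 2-fold in macrophages or classical monocytes. In nonclassical monocytes 1 of 4 was past 2-fold lower in IR, at a log2 ratio of -1.03 with overlapping intervals, beside 4.38% of genes. Clec4a2 was at 205 and 201.5 CPM in macrophages and at 171 and 140 CPM in classical monocytes. Clec12a was at 194 and 173.5 CPM in macrophages and at 116 and 102 CPM in classical monocytes. The median log2 ratio of the group was -0.14 in macrophages and -0.31 in classical monocytes, against 1.18 and 0.61 for the measured members of the ITAM group in the same gates. The ITAM group also holds Clec1b and Clec9a, classed with it for a related motif, the hemITAM. Its 7 measured members in macrophages ranged from -2.34 for Clec4b1 to 2.93 for Clec1b, the latter from 19 and 29 UMIs. The median of the Clec4a and Clec12 group was also below that of the ITAM members in intermediate cells, from 4 members against 5. The same held in nonclassical monocytes and cDC2, from 4 against 4 in each. In mature DCs it was 0.29 from 1 member against 3.95 from 2, Clec4n and Clec4e, whose IR UMIs there lay mostly in 5 cells. It was above the ITAM median in neutrophils, at 1.28 from 2 members against 0.52 from 4, and in cDC1, at -0.08 from 1 against -0.25 from 3.

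Clec4a1 and Clec4a3, close paralogs of Clec4a2 whose 3′ reads may be shared among them, were highest in nonclassical monocytes. Clec4a3 read 453 CPM in Control against 322 CPM in IR, and Clec4a1 read 309 against 223 CPM, with overlapping intervals between libraries. In classical monocytes Clec4a1 was at 157.5 and 98.2 CPM and Clec4a3 at 180.0 and 144 CPM, lower in IR without overlap but by less than 2-fold. In DCs Clec12a did not differ beyond its intervals, at 126 and 119 CPM in cDC1 and 91.6 and 85.5 CPM in cDC2. In neutrophils Clec12a was at 34.1 and 106.5 CPM, past 2-fold from 2 and 52 UMIs, with an interval of the log2 ratio from -0.28 to 4.72. Clec12b and Clec4a4 stayed under 20 UMIs in every myeloid gate.

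The endocytic receptor Clec10a (MGL1, CD301a) binds glycans. In macrophages it was at 69.2 CPM in Control (65.3 to 73.1) and 16.5 CPM in IR (12.6 to 21.3), 4.19-fold lower. In intermediate cells it was at 51.7 and 11.5 CPM, 4.48-fold lower, and in classical monocytes at 47.9 and 24.2 CPM, 1.98-fold lower. In cDC2 it was at 241 CPM (197.8 to 291.2) and 280.3 CPM (239 to 326.6), with overlapping intervals. The share of macrophages with a Clec10a UMI at the common depth was 9.65% in Control and 2.62% in IR, and that of cDC2 was 21.7% and 25%. Without thinning, 463 and 40 macrophages and 21 and 29 cDC2 had one. With clusters in place of gates the log2 ratio was -1.61 in macrophages and -0.93 in intermediate cells.

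Most Control UMIs of Clec10a in macrophages came from 1 subset. Cells of the gate marked by Lyve1, Folr2 and related genes held 674 of the 1232 UMIs, at 529 CPM, and numbered 200 in Control and 16 in IR. In the 16 IR cells Clec10a had 2 UMIs, or 16.7 CPM, a log2 ratio of -4.98 (-8.03 to -3.13). In the Mmp12-Mmp13 subset, of 697 and 153 cells, it was at 26.9 and 10.6 CPM, 2.54-fold lower. In macrophages of no subset, 936 and 161 cells, it was at 42.5 and 24.1 CPM, 1.77-fold lower. The paralog Mgl2, whose 3′ reads may be hard to separate from those of Clec10a, was at 357 and 134 CPM in macrophages and at 701 and 501 CPM in cDC2. Free RNA also held less Clec10a in IR, at 52.4 against 10.3 CPM, and its part in the macrophage difference, beyond the subtraction named above, was not tested.

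The other genes differed across subsets in another way. Clec4n was at 599 and 1429 CPM in the Mmp12-Mmp13 subset, at 508 and 1095 CPM in the Fcgr4-Gpr84 subset, and at 478 and 1139 CPM in macrophages of no subset, past 2-fold in each. In the Lyve1-Folr2 subset it was at 178 and 150.5 CPM with overlapping intervals. Clec4d was past 2-fold higher in these 4 groups, including 68.3 and 192 CPM in the Lyve1-Folr2 subset. Cycling cells made up 15.7% of the macrophage gate in Control and 4.31% in IR. Without them the log2 ratio in macrophages was 1.18 for Clec4n, 1.52 for Clec4d and -2.36 for Clec10a.

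**Figure D5:**
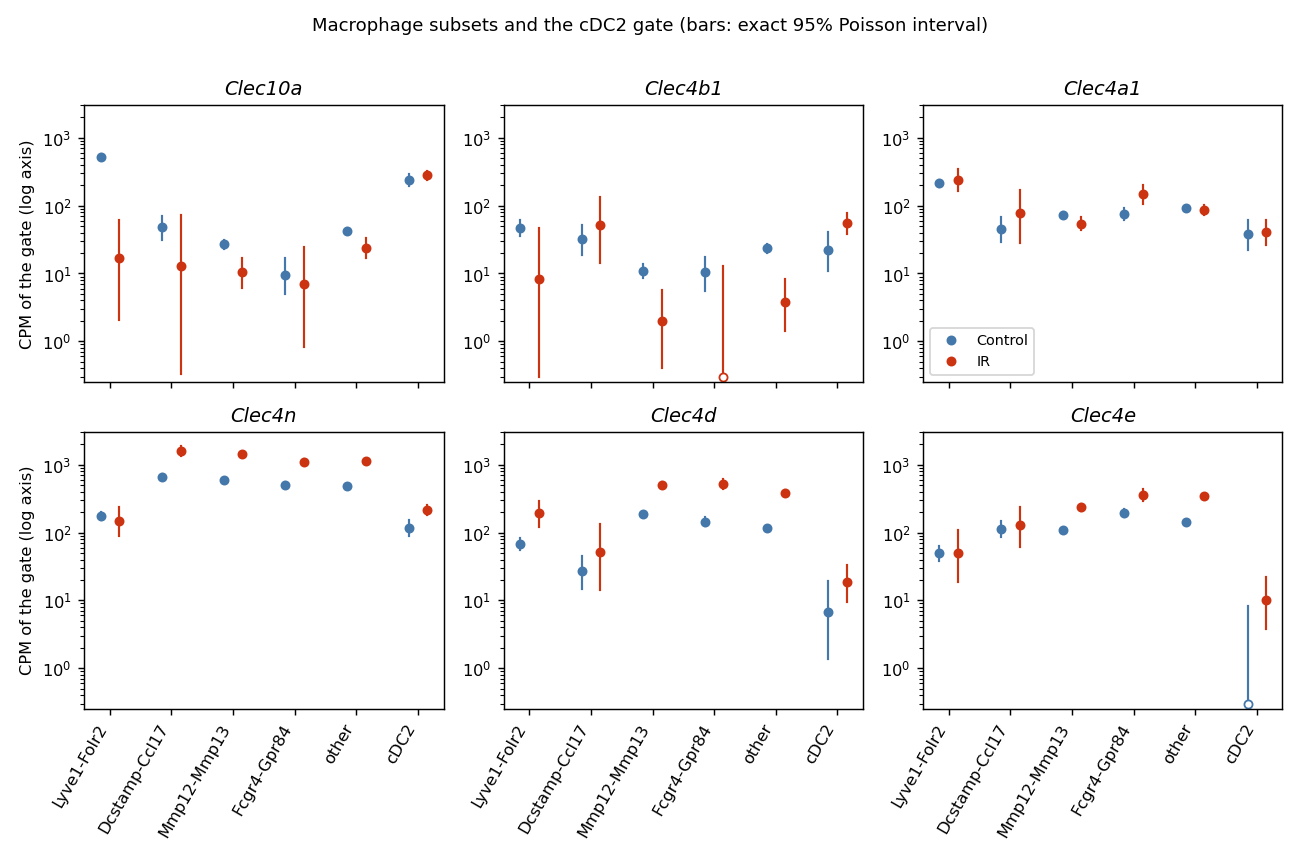
Level of 6 members (CPM, log axis) in macrophage subsets named by their marker genes, in macrophages of no subset (other) and in the cDC2 gate, Control in blue and IR in red, with exact 95% Poisson intervals; open points had no UMI. Clec10a reads 529 CPM in the Control Lyve1-Folr2 subset and 16.7 CPM in IR, while Clec4n is at 178 and 150.5 CPM there.

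Clec2d encodes Clr-b, the ligand of the inhibitory NK receptor Klrb1b, and Clec2i encodes Clr-g, a ligand of Klrb1f. Clec2d was the member with the highest level in mature DCs, at 81.5 CPM in Control and 112 CPM in IR with overlapping intervals. Without thinning, 50 Control and 83 IR mature DCs had a Clec2d UMI. At the common depth 16.8% of Control and 21.7% of IR mature DCs had a UMI, against 5.40% and 11.4% of T cells, which also express Clec2d. In neutrophils Clec2d was at 51.2 and 213 CPM, from 3 and 104 UMIs, with a log2 ratio of 2.06 (0.47 to 4.36). In nonclassical monocytes it was at 18.9 and 95.7 CPM, from 3 and 33 UMIs, and its log2 ratio was 2.34, or 0.76 with clusters in place of gates. In macrophages and classical monocytes it was higher by less than 2-fold, at 23.7 and 36.6 CPM and at 33.0 and 54.0 CPM. Clec2i was at 14.4 CPM in Control and 42.5 CPM in IR in mature DCs, 2.95-fold higher without overlap, and at 40.9 and 52.5 CPM in NK cells.

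Mature DCs also showed large ratios of Clec4n and Clec4e that rest on few cells. Clec4n was at 9.59 CPM in Control, from 8 UMIs, and 102 CPM in IR, from 139 UMIs, of which 117 were in 5 of 139 cells and 51 in 1 cell. With clusters in place of gates its log2 ratio was 0.79, under 2-fold. Clec4e was at 1.199 CPM from 1 UMI and 27.1 CPM from 37 UMIs, of which 36 were in 5 cells, with an interval of the log2 ratio from 1.93 to 9.84. At the common depth 3.74% and 6.98% of mature DCs had a Clec4n UMI, no more than the 5.91% and 7.17% of T cells, so no difference is read from these shares. Classical monocyte markers summed to 88.7 CPM in Control and 302 CPM in IR in this gate, higher in IR for 6 of 8, with 1 marker at 0 in both libraries. Their part in these ratios was not tested. In cDC1 Clec4n was at 181.5 and 333 CPM, but 61 of 72 Control UMIs and all 56 IR UMIs lay in 5 cells of each library. In cDC2 it was at 118 and 217 CPM, from 19 of 50 and 25 of 52 cells, higher without overlap and by less than 2-fold.

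The remaining members were low or outside the myeloid gates. Clec16a, an intracellular protein, was at 3.37 CPM in Control macrophages and Clec1a at 4.32 CPM, and both were at 3.35 CPM in IR. Clec2g and Clec2l had 21 and 22 UMIs in macrophages over both libraries. Clec3b, which encodes the plasma protein tetranectin, was found in stromal cells, at 52.5 CPM in Control and 3.59 CPM in IR, from 93 and 9 UMIs. Clec4f, Clec2h, Clec2e, Clec18a, Clec3a and Clec14a had no UMI in the 8 myeloid gates.

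Genes that act with these receptors were read by the same rule. Of 15 adaptor and signalling genes, none was past 2-fold in macrophages, beside 3.04% of all measured genes higher and 7.01% lower. Their median log2 ratio there was 0.10. In macrophages the adaptor genes were higher in IR without overlap of intervals and by less than 2-fold: Fcer1g was at 2672 and 3544 CPM, 1.33-fold higher, and Tyrobp at 2003 and 2551 CPM, 1.27-fold higher. In classical monocytes Fcer1g was at 3421 and 3710 CPM and Tyrobp, lower in IR, at 3504 and 3185 CPM. Syk was at 94.0 and 105 CPM in macrophages and Card9 at 16.9 and 16.5 CPM, with overlapping intervals. In classical monocytes 1 of the 15 was past 2-fold higher, the kinase gene Src, at 7.18 and 15.7 CPM, beside 4.91% of genes. Elsewhere Card9 was higher in mature DCs, 1 of 14 beside 5.38%. Vav1 was lower in neutrophils, 1 of 11 beside 12.8%, and Ptpn11 lower in cDC1, 1 of 12 beside 7.47%. The last 3 had overlapping intervals, and nothing is read about the list from these single genes.

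Of 7 ligands and receptors of members, 6 were measured in macrophages, with a median log2 ratio of -0.19. There none was past 2-fold higher, beside 3.04% of genes, and 1 was lower, beside 7.01%. In classical monocytes 2 of 6 were higher, beside 4.91%, in neutrophils 1 of 2, beside 14.4%, and in mature DCs 1 of 3, beside 5.38%. None was past 2-fold in the other myeloid gates, and nothing is read about the list from these few genes. Pdpn, the ligand of CLEC-2, was at 255 CPM in Control and 446 CPM in IR in macrophages, 0.81 on the log2 scale. It was past 2-fold in classical monocytes, at 63.2 and 143 CPM. Sap130 was at 11.9 and 17.1 CPM in macrophages. Klrb1b, the receptor of Clr-b, was past 2-fold higher in mature DCs, at 24.0 and 52.7 CPM. C-type lectins of other names included 2 of 7 that were past 2-fold lower in macrophages, beside 7.01% of all genes, and none that was higher. They were Mrc1, the mannose receptor, at 400.2 and 199 CPM, and Mgl2. In intermediate cells 3 of 4 were lower, Mrc1, Mgl2 and Cd209a, beside 2.42%, and in classical monocytes 2 of 4, Mrc1 and Cd209a, beside 1.41%. Their median log2 ratio was -0.17 in macrophages, -1.67 in intermediate cells and -0.88 in classical monocytes. Mrc1 was at 274.8 and 92.3 CPM and at 91.4 and 44.1 CPM in these last gates, and Cd209a, also a marker of the cDC2 gate, at 32.5 and 4.61 CPM and at 48.8 and 14.8 CPM. Mrc1 is a marker of the Lyve1-Folr2 subset.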

How the data were processed

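The matrices deposited by the authors hold unnormalized UMI counts, made with Cell Ranger (version 6.0.1 in the submitters' processing notes, 4 in the matrix header; mm10) for 1 Control and 1 IR library made with a 3′ v3.1 kit from pooled tumors, with no barcode filter. Barcodes with at least 500 UMIs, 200 genes and at most 25% mitochondrial UMIs were kept, and the 6% with the highest Scrublet score were removed in each library, since its automatic threshold marked 0 and 1 cells.

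Each cell was scored on marker lists without Clec genes (mean of scaled log counts) and joined a gate when at least 2 markers were detected and its best list led the next by 1.5 times and by 0.1. UMIs were summed per gate. Levels have exact Poisson intervals and ratios exact conditional intervals (95%), computed with Python 3.11.15 and scipy 1.17.1. The ratio intervals and the 2-fold rule were tried on simulated Poisson counts, the model the intervals assume, with changes set in genes of high count. Clustering of UMIs within cells and genes of low count were not tested. A gene with at least 20 UMIs in a gate was counted as different at 2-fold. Named members were those past 2-fold whose intervals did not overlap and the 3 highest of each gate. Members outside this rule are named, after their values were seen, to describe their group. The members, gene lists and rules were chosen with earlier results of these data known. Alternatives were a minimum of 1000 UMIs, 10% mitochondrial UMIs, no doublet removal, gate margins of 1.0 and 2.0, clusters (scanpy 1.11.5), median-ratio and TMM scaling (edgeR 4.0.16), free RNA subtracted, 50 UMIs a gene, 1 UMI in each library, a pseudocount of 10 CPM, thinning to 1000 UMIs, and, chosen after seeing the data, cycling cells left out.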

Additional observations from a re-analysis of the deposited data

Results flagged for a closer look

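Clec4b1 moved in opposite directions in 2 gates of the same libraries: its log2 ratio of IR to Control was 1.34 in the cDC2 gate, from 10 and 33 UMIs, and -2.34 in the macrophage gate, from 352 and 14 UMIs. With 1 library per group the difference between the gates was not tested. Outside cells, in barcodes of 1 to 100 UMIs, Clec4e reached 245.7 CPM in IR (230.6 to 261.6) against 101 CPM in Control (92.8 to 110.1). These barcodes were not part of any gate.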

How the results depend on the processing

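No paired analysis was possible because each condition has 1 library, and no replicate could be left out. No named member past 2-fold changed direction under an alternative. Of the other named ratios, that of Clec4d ranged from -0.30 to 0.73 in neutrophils and from -0.01 to 0.88 in intermediate cells, and that of Clec9a in cDC1 from -0.28 to 0.36, all on the log2 scale. The counts of members past 2-fold in macrophages stayed within 1.5 times of 4 higher and 2 lower under every alternative. The members counted did not stay the same. With clusters in place of gates Clec4n (0.68) and Clec4b1 (-0.59) were under 2-fold in macrophages, and with 10 CPM added Clec1b was (0.71). The share of all genes past 2-fold was not computed under the alternatives, so their counts have no share beside them. Counts in the other gates are small and moved as follows. With clusters in place of gates, classical monocytes had 0 higher and 0 lower, intermediate cells 1 higher and 0 lower, nonclassical monocytes 1 higher and 2 lower, and mature DCs 1 higher; no cluster was named cDC1. With only 1 UMI required in each library, 3 were lower in classical monocytes, 3 higher and 3 lower in intermediate cells, 1 lower in neutrophils, 2 lower in nonclassical monocytes, 3 higher and 2 lower in cDC1, 1 lower in cDC2, and 6 higher and 1 lower in mature DCs. At 50 UMIs a gene, nonclassical monocytes had 2 higher and 0 lower and cDC2 0 higher. A pseudocount of 10 CPM left 0 lower in classical and in nonclassical monocytes and 1 higher in cDC2. A gate margin of 2.0 gave 2 higher and 2 lower in intermediate cells, 2 higher in nonclassical monocytes, 1 higher in cDC1 and 1 higher in cDC2, and a margin of 1.0 gave 0 higher in cDC2 and 0 lower in nonclassical monocytes. Without doublet removal there was 1 higher in intermediate cells, 0 lower in nonclassical monocytes and 5 higher in mature DCs. TMM scaling gave 6 higher in neutrophils and 0 lower in nonclassical monocytes. It shifted all log2 ratios by 0.59 and 0.125 there, while median-ratio scaling, which centres on the median of all genes, moved no count beyond 1.5 times. A limit of 10% mitochondrial UMIs gave 1 lower in cDC1, and leaving out cycling cells, chosen after seeing the data, gave 2 lower in intermediate cells and 1 lower in cDC1. Thinning to 1000 UMIs lowers most shares of cells, so shares are compared at 1 depth only. The cause of these moves was not tested. Neutrophils in Control, with 36 cells, and the DC gates limit what depth can show.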
